A study of Mus musculus with 24 samples.

Results

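The genes described here are 10 genes of the urea cycle and of the glutamine, glutamate and ornithine supply that feeds it: Cps1, Otc, Nags, Ass1, Asl, Arg1, Slc25a15, Slc25a13, Gls2 and Oat. They were listed by symbol for their place in periportal ammonia disposal, with earlier results of these data known. The rule was to take a gene's probe set with the highest mean signal. Of the 10 genes, 8 were among the 18820 named genes on the array. Each of these 8 had only 1 probe set of its own, so no choice arose. Ass1 was measured only by 2 probe sets that are also listed for Gm5424, a processed copy of it. Gls2 had no probe set listed in the annotation used and was not analysed here. The samples were livers of 24 male C57BL/6 mice fed chow, hybridised to 1 array each, with 6 mice in each of 4 groups. The groups were FXRKO mice given obeticholic acid (OCA, also called INT747, a semi-synthetic bile acid that activates the nuclear receptor FXR), FXRKO mice given vehicle, WT mice given OCA, and WT mice given vehicle. Gavage was daily for 7 days in animals of 9 to 12 weeks, OCA was dosed at 10 mg/kg/day, and all 4 groups received the 1% methyl cellulose carrier. The labels call the knockout line FXR-/- and name no promoter or tissue that restricts the deletion, so the receptor's loss in other organs cannot be told apart from its loss in liver.

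The urea cycle turns ammonia, which is toxic to the brain, into urea for excretion, and in liver it runs mainly in the hepatocytes around the portal vein. Its first steps take place in mitochondria, where Nags makes the activator that Cps1 requires, Cps1 joins ammonia and bicarbonate into carbamoyl phosphate, and Otc passes that group to ornithine to form citrulline. In the cytosol Ass1 and Asl add the second nitrogen from aspartate, and Arg1 splits arginine into urea and ornithine. Slc25a15 carries ornithine and citrulline across the inner mitochondrial membrane, Slc25a13 exports aspartate from mitochondria, Gls2 releases ammonia from glutamine, and Oat interconverts ornithine and glutamate.

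Upstream sequences were available in the RefSeq promoter table (GRCm38.p6) for 6 of the 10 genes, as 7 promoters, and 3 are printed here: Otc, because its knockout and wild-type arrays were apart, Nags, because it alone held a searched motif, and Oat, because it moved the other way from the rest. Each line is the 250 bases before the annotated start, 5′ to 3′ on the gene's strand. The windows are chrX:10252055-10252304 (plus strand) for Otc, chr11:102145263-102145512 (plus strand) for Nags and chr7:132576399-132576648 (minus strand) for Oat. Capitals mark a match to a searched motif.
Otc: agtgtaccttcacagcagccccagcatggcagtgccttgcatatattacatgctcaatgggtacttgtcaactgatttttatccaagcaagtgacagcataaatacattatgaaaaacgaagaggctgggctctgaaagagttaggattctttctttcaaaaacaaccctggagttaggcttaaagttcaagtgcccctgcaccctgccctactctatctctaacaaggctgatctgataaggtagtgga
Nags: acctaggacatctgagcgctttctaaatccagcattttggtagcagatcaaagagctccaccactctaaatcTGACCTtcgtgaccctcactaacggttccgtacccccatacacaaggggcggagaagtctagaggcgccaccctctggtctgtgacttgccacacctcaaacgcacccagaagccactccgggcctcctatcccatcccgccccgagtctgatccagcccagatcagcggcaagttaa
Oat: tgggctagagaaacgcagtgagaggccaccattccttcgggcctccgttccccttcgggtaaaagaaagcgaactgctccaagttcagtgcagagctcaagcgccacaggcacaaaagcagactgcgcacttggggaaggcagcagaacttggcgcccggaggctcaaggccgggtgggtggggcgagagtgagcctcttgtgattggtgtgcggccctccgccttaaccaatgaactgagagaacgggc
Both strands were searched for AGGTCA, the hexamer that nuclear receptors recognise, for AGGTCA and for AGTTCA each followed by any 1 base and TGACC, which are inverted repeats short of their last base and of which the first contains AGGTCA, for TGACGTCA, the cAMP response element, and for TATAAA. One of the 7 promoters held a match, Nags, with AGGTCA on the reverse strand beginning at position -178 from the start. Across all 32851 promoters in the table, matches to AGGTCA occurred in 14%, to TATAAA in 12.4%, to TGACGTCA in 1.55%, to the longer string that begins with AGGTCA in 0.0244% and to that beginning with AGTTCA in 0.00913%. These matches describe letters in a window and say nothing of binding.

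Expression is given as deposited log2 array signal. Array medians lay between 4.57 and 4.65, and the correlation between arrays was 0.9746 to 0.9966 over the named genes. The probe set of Nr1h4, which encodes FXR, had a lowest, median and highest signal of 9.80, 9.94 and 10.05 in FXRKO OCA livers, 9.88, 9.91 and 10.13 in FXRKO vehicle livers, 9.85, 10.07 and 10.28 in WT OCA livers and 9.96, 10.15 and 10.30 in WT vehicle livers. The sources used here do not say where these probes lie relative to the deleted part of the gene, so they do not check the genotype labels. Nr0b2, a corepressor gene that FXR activates, reached at most 4.82 in FXRKO OCA livers and had a mean of 3.97 ± 0.48 (SD, n = 6) in FXRKO vehicle livers, against at least 7.31 in WT OCA livers and 5.87 in WT vehicle livers. Every FXRKO array lay below every WT array for this target. The major hepatocyte transcript Alb was between 13.24 and 13.43 in FXRKO arrays and between 13.38 and 13.52 in WT arrays, near the top of the scale, whose highest value is 13.60. WT vehicle replicate 6 stood apart in neutrophil markers, with a mean marker signal of 5.33 against a group median of 3.16.

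The first comparison asked how the genes differ in livers without FXR under vehicle. Of the 8 measured genes, 7 were lower and 1, Oat, was higher in FXRKO livers than in WT livers (limma, Benjamini-Hochberg adjusted p under 0.05). Over all named genes, 12.1% were called lower and 15.4% higher. The median log2 change of the 8 genes was -0.32, with a range of -0.56 to 0.34, beside a median of -0.03 over all genes. The decreases were between 16.4% and 32.2% on the linear scale.

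**Figure D1:**
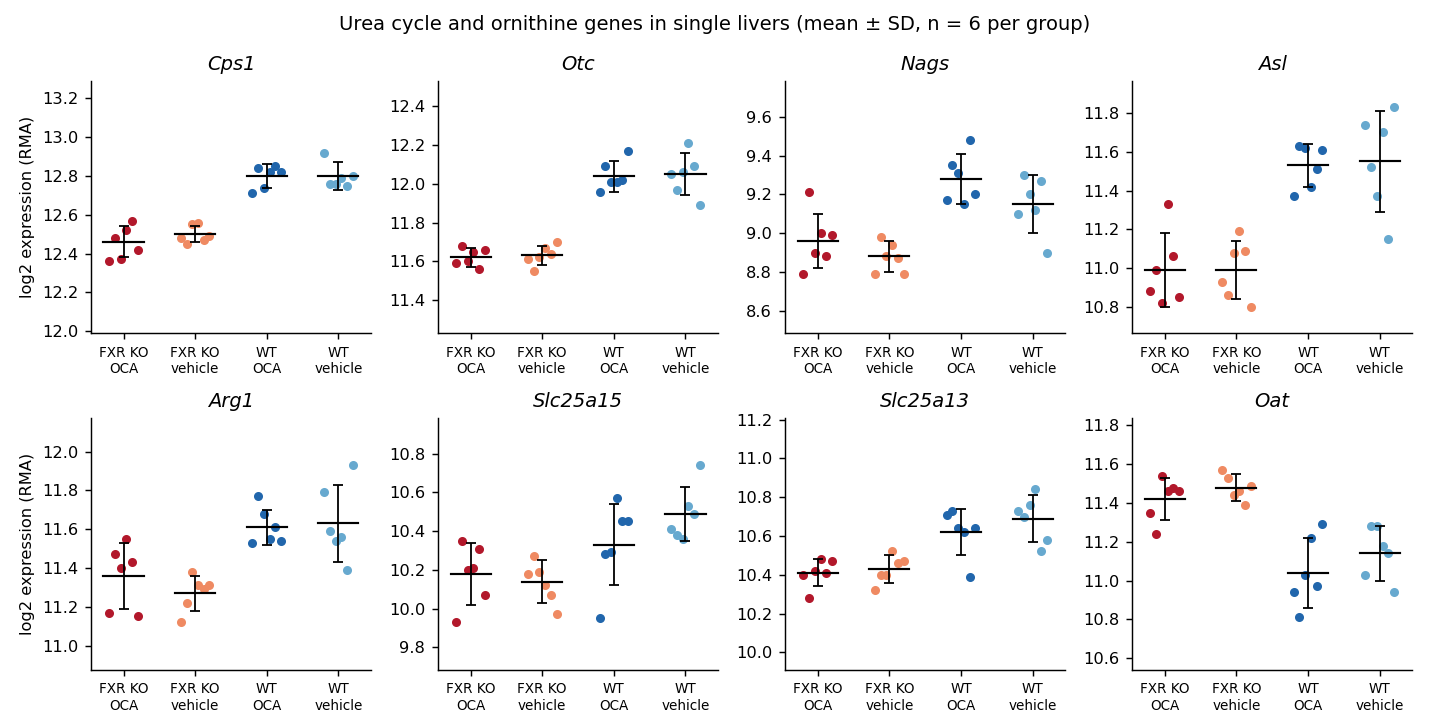
Log2 signal (vertical axes) of the 8 measured genes, 1 panel per gene, in the 4 groups (horizontal axes); points are single arrays, 6 per group, bars mark the mean and SD, and each panel has its own range of the axis, which does not start at 0. Cps1 and Otc show knockout arrays wholly below wild-type arrays (at most 12.57 and 11.70, against at least 12.71 and 11.89), and Oat shows the opposite direction.

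Among the mitochondrial enzymes, Cps1 had a lowest, median and highest signal of 12.45, 12.49 and 12.56 in FXRKO vehicle livers, against 12.75, 12.78 and 12.92 in WT vehicle livers. The groups did not overlap, and the spread of 0.04 (SD) in knockouts and 0.07 in wild types was far below the gap between the means. Its log2 change was -0.30 ± 0.05 (SE, limma adjusted p = 5.33e-05), a signal 18.5% lower. Otc, which consumes the carbamoyl phosphate made by Cps1, had 11.55, 11.63 and 11.70 in FXRKO vehicle livers, against 11.89, 12.06 and 12.21 in WT vehicle livers. These groups were also apart, with a log2 change of -0.41 ± 0.05 (limma adjusted p = 1.39e-06), or 24.9% lower. Nags, whose product switches Cps1 on, had 8.79, 8.88 and 8.98 in FXRKO vehicle livers, against 8.90, 9.16 and 9.30 in WT vehicle livers. The 2 groups overlapped here, because the lowest WT array, replicate 6 at 8.90, fell within the knockout range. The log2 change of Nags was -0.27 ± 0.08 (limma adjusted p = 0.00816), or 17.2% lower.

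Of the cytosolic enzymes, Asl, the argininosuccinate lyase, had 10.80, 11.01 and 11.19 as its lowest, median and highest signal in FXRKO vehicle livers, against 11.15, 11.61 and 11.83 in WT vehicle livers. Only WT replicate 5, at 11.15, reached into the knockout range, and Asl varied most among WT vehicle livers of all 8 genes (SD 0.26). Its log2 change of -0.56 ± 0.10 (limma adjusted p = 1.66e-04) was the greatest of the 8 in size, a signal 32.2% lower. Arg1, the arginase that releases urea, had 11.12, 11.30 and 11.38 in FXRKO vehicle livers, against 11.39, 11.57 and 11.93 in WT vehicle livers. The highest knockout and the lowest wild-type array nearly touched without crossing, and the log2 change was -0.36 ± 0.08 (limma adjusted p = 0.00182), or 22% lower.

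Ass1, the enzyme between Otc and Asl, can be described only through the probe sets it shares with Gm5424, so its share of their signal is uncertain. One of them, 10363541, had a lowest, median and highest signal of 12.43, 12.53 and 12.63 in FXRKO vehicle livers, against 12.79, 12.88 and 12.93 in WT vehicle livers. The other, 10471154, had 12.36, 12.44 and 12.54 in FXRKO vehicle livers, against 12.72, 12.79 and 12.84 in WT vehicle livers. Neither overlapped between genotypes. In a fit over all probe sets, their log2 changes were -0.35 ± 0.05 (limma adjusted p = 7.38e-06) and -0.34 ± 0.05 (limma adjusted p = 4.60e-06), or 21.4% and 21.2% lower. They are not counted among the 8 genes.

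The mitochondrial carriers were lower as well. Slc25a15, the ornithine carrier, had 9.97, 10.15 and 10.27 in FXRKO vehicle livers, against 10.36, 10.45 and 10.74 in WT vehicle livers, with no overlap. Its log2 change was -0.35 ± 0.09 (limma adjusted p = 0.00474), or 21.5% lower. Slc25a13, the aspartate and glutamate carrier known as citrin, had 10.32, 10.43 and 10.52 in FXRKO vehicle livers, against 10.52, 10.72 and 10.84 in WT vehicle livers. The groups met at 10.52 without crossing, and the log2 change was -0.26 ± 0.06 (limma adjusted p = 0.00272), or 16.4% lower.

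Oat was the exception. This ornithine aminotransferase is known in rodent liver mainly from the pericentral cells that also make glutamine. Its signal was 11.39, 11.47 and 11.57 in FXRKO vehicle livers, against 10.94, 11.16 and 11.28 in WT vehicle livers. Every knockout array was above every wild-type array, and the log2 change was 0.34 ± 0.08 (limma adjusted p = 0.00153), or 26.3% higher. The call was lost when the number in each array's code (5, 7 or 9, of unexplained meaning) was a block in the fit (0.25, limma adjusted p = 0.054) and when arrays were centred on the median of the named genes (0.17, limma adjusted p = 0.0634).

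The same genotype contrast was measured a second time in OCA-treated livers, in 12 arrays that the vehicle comparison did not use, with the spread estimated over all arrays. Of the 8 genes, 6 were lower, 1 was higher and 1, Slc25a15, was not called, where over all genes 13.3% were called lower and 17.4% higher. All 8 genes had the same sign of change in the OCA and the vehicle livers, and 7 of 8, or 87.5%, were called in the same direction in both. The OCA livers are confounded, however, since the number in the array code was 9 on all FXRKO OCA arrays and 5 on all WT OCA arrays, so number and genotype cannot be told apart there. With that number as a block over all arrays, the OCA calls were 1 lower and 0 higher among the 8. Calls over all genes were then 2334 in either direction, against 5780 without the block. Over all 18820 genes, 77.6% had the same sign and 20.9% were called in the same direction in both sets. The median log2 change of the 8 genes was -0.28, beside -0.02 for all genes.

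Cps1 was at 12.36, 12.45 and 12.57 (lowest, median, highest) in FXRKO OCA livers, against 12.71, 12.82 and 12.85 in WT OCA livers, again without overlap and with a log2 change of -0.34 ± 0.05 (limma adjusted p = 6.70e-06). Otc was at 11.56, 11.62 and 11.68 in FXRKO OCA livers, against 11.96, 12.01 and 12.17 in WT OCA livers, with a log2 change of -0.42 ± 0.05 (limma adjusted p = 1.01e-06). These 2 genes alone of the 8 had all 12 knockout arrays below all 12 wild-type arrays, a pattern shown by 2.9% of all genes, and no gene of the 8 had all 12 knockout arrays above, as 5.96% of all genes did. Asl had 10.82, 10.93 and 11.33 in FXRKO OCA livers, against 11.37, 11.56 and 11.63 in WT OCA livers, with a log2 change of -0.54 ± 0.10 (limma adjusted p = 2.21e-04). Nags had 8.79, 8.94 and 9.21 in FXRKO OCA livers, against 9.15, 9.26 and 9.48 in WT OCA livers, and its log2 change was -0.32 ± 0.08 (limma adjusted p = 0.00211). Asl thus separated the genotypes here, and Nags did not.

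Arg1 had 11.15, 11.41 and 11.55 in FXRKO OCA livers, against 11.53, 11.58 and 11.77 in WT OCA livers. The ranges overlapped slightly, and the log2 change of -0.25 ± 0.08 (limma adjusted p = 0.0225) was lost when any 1 of 3 arrays was left out: WT OCA replicate 2 (-0.22, adjusted p = 0.0583), FXRKO OCA replicate 1 (-0.21, adjusted p = 0.0651) or FXRKO OCA replicate 6 (-0.21, adjusted p = 0.0676). Slc25a13 had 10.28, 10.42 and 10.48 in FXRKO OCA livers, against 10.39, 10.64 and 10.73 in WT OCA livers, with a log2 change of -0.21 ± 0.06 (limma adjusted p = 0.0126); WT OCA replicate 5 was the sole wild-type array inside the knockout range. Slc25a15 had 9.93, 10.20 and 10.35 in FXRKO OCA livers, against 9.95, 10.37 and 10.57 in WT OCA livers. Its log2 change was -0.15 ± 0.09 (95% confidence interval -0.34 to 0.04, limma adjusted p = 0.224), and WT OCA replicate 1 was the low array of its group. Without that array the log2 change was -0.23 and passed the threshold (limma adjusted p = 0.0406). Oat had 11.24, 11.46 and 11.54 in FXRKO OCA livers, against 10.81, 11.00 and 11.29 in WT OCA livers, with a log2 change of 0.38 ± 0.08 (limma adjusted p = 4.16e-04) and a slight overlap. The 2 probe sets shared by Ass1 and Gm5424 had log2 changes of -0.35 ± 0.05 (limma adjusted p = 5.92e-06) and -0.36 ± 0.05 (limma adjusted p = 2.45e-06) under OCA.

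**Figure D2:**
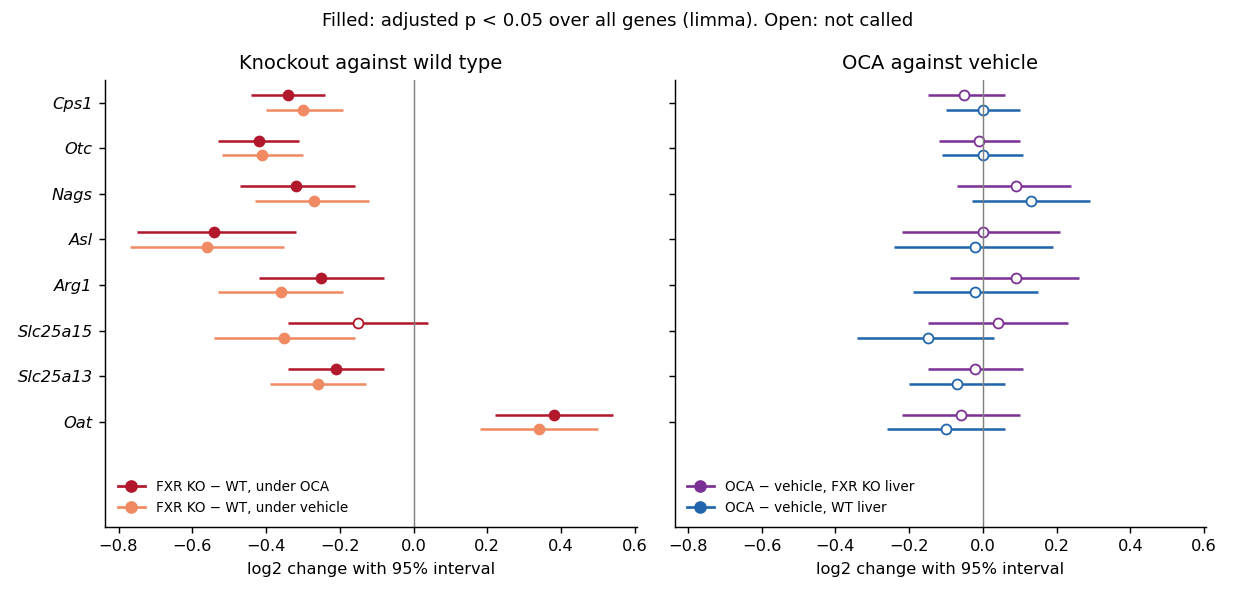
Log2 changes of the 8 genes with 95% confidence intervals (horizontal axes) for knockout against wild type under OCA and vehicle (left) and for OCA against vehicle in FXR KO and WT liver (right); 6 arrays per group, with filled points called by limma at adjusted p under 0.05. The knockout intervals lie below 0, except that of Oat, above 0, and that of Slc25a15 under OCA (-0.34 to 0.04), and the intervals of all OCA effects include 0.

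The OCA comparisons asked whether 7 days of the FXR agonist moved these genes. None of the 8 passed the threshold in WT livers (limma, 0 at adjusted p under 0.05 and 0 at an unadjusted p under 0.05, the smallest being 0.101), where 0.0691% of all genes were called and 9.47% had an unadjusted p under 0.05. In FXRKO livers the counts were also 0 and 0, with a smallest unadjusted p of 0.272, where 0.0159% of all genes were called and 5.14% had an unadjusted p under 0.05. The size of effect that these arrays leave possible differed by gene. For Cps1 the OCA effect in WT livers was 0.00 with an interval of -0.10 to 0.10, and for Otc it was 0.00 with -0.11 to 0.11, so neither interval reached the size of the knockout decrease of its gene. For Arg1 it was -0.02 (-0.19 to 0.15) and for Asl -0.02 (-0.24 to 0.19).

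The highest and lowest OCA effects in WT livers were those of Nags, 0.13 (-0.03 to 0.29, limma adjusted p = 0.639), and Slc25a15, -0.15 (-0.34 to 0.03, limma adjusted p = 0.638). Slc25a13 was at -0.07 (-0.20 to 0.06) and Oat at -0.10 (-0.26 to 0.06). In FXRKO livers the effects lay between -0.06 for Oat and 0.09 for Nags and Arg1, and every interval included 0. The interaction test, the OCA effect in FXRKO minus that in WT livers, called none of the 8 (limma, adjusted and unadjusted counts of 0), with 0% of all genes called and 1140 of 18820 genes at an unadjusted p under 0.05. The widest of these differences was that of Slc25a15, 0.20 with an interval of -0.07 to 0.46. For 7 genes both FXRKO group means were below both WT group means, and for Oat both were above. No difference between the 2 treatments within a genotype was called for any of the 8 genes. Treatment was tied in part to the number in the array code. Number 5 was on all 6 WT OCA arrays but only 2 WT vehicle arrays. Number 9 was on all 6 FXRKO OCA arrays but only 2 FXRKO vehicle arrays. The OCA effects thus cannot be fully told apart from that number. With the number as a block, calls over all genes for OCA in WT livers went from 13 to 667.

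A wider list of 27 genes of ammonia, glutamate and amino acid handling had 22 measured genes, of which 5 were higher, 10 were lower and 7 were not called in FXRKO vehicle against WT vehicle livers (median log2 change -0.26, range -1.39 to 2.47). Under OCA the counts were 6 higher, 10 lower and 6 not called. The shares over all genes were 15.4% higher and 12.1% lower under vehicle, and 17.4% and 13.3% under OCA. The smallest p-values in the list under vehicle were those of Prodh, Aldh18a1, Asns and Rhbg. Prodh, which starts proline breakdown, had a signal of 8.67 to 9.23 in FXRKO vehicle livers, against 10.14 to 10.51 in WT vehicle livers (log2 change -1.39 ± 0.09, limma adjusted p = 3.47e-12). Aldh18a1, which makes the precursor of proline and ornithine from glutamate, had 6.00 to 6.36 in FXRKO vehicle livers, against 3.98 to 5.05 in WT vehicle livers (1.82 ± 0.13, limma adjusted p = 9.97e-11). Asns, the asparagine synthetase, had 8.16 to 8.56 in FXRKO vehicle livers, against 5.19 to 6.37 in WT vehicle livers (2.47 ± 0.22, limma adjusted p = 3.06e-09). None of these 3 overlapped between genotypes, but they were picked by p-value in this same comparison, so their lack of overlap is no separate result. Under OCA their knockout changes were -1.53, 1.92 and 3.05.

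The 2 genes of this list with the smallest p-values for OCA in WT livers were Got1 and Slc25a12. Got1, the cytosolic aminotransferase that forms aspartate, had a log2 change of -0.87 ± 0.16 (limma adjusted p = 1.32e-04) under vehicle and of -0.41 ± 0.16 (limma adjusted p = 0.0487) under OCA. Slc25a12, the close relative of citrin, had -0.57 ± 0.10 under vehicle (limma adjusted p = 1.30e-04) and -0.20 ± 0.10 under OCA (limma adjusted p = 0.165). In WT livers the OCA effect was -0.42 (-0.75 to -0.10, limma adjusted p = 0.363) for Got1 and -0.35 (-0.56 to -0.13, limma adjusted p = 0.213) for Slc25a12. Neither passed after adjustment, and the interaction of OCA and genotype had adjusted p-values of 0.833 and 0.73.

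**Figure D3:**
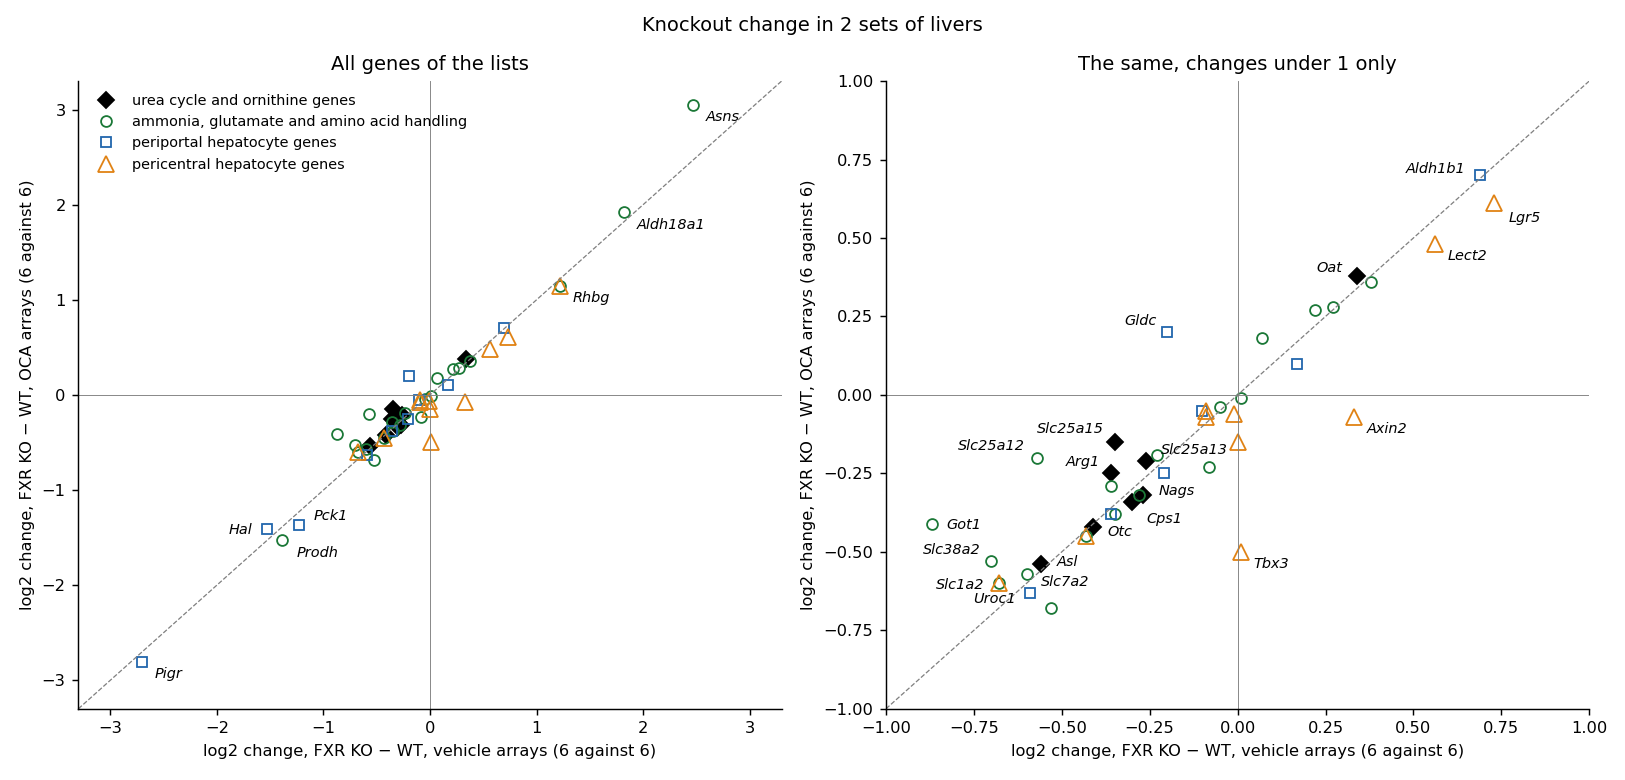
Log2 change, FXR knockout minus wild type, in vehicle livers (horizontal axes) and in OCA livers (vertical axes) for each measured gene of 4 lists, with a close view of changes under 1 on the right; each point is a gene, and each axis compares 6 arrays with 6. The dashed line marks equal change in both sets, near which lie Pigr (-2.70 and -2.81) and Aldh18a1 (1.82 and 1.92), with Asns (2.47 and 3.05) and Got1 (-0.87 and -0.41) farther from it.

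The genes were set beside other periportal and pericentral genes, since the urea cycle is a periportal function. Of 11 periportal genes, 10 were measured, and 2 were higher, 5 lower and 3 not called in FXRKO vehicle against WT vehicle livers (median -0.28). Among all genes, 15.4% were called higher and 12.1% lower in that comparison. Pigr, the transporter of polymeric immunoglobulins, had 8.96 to 9.74 in FXRKO vehicle livers, against 11.98 to 12.13 in WT vehicle livers (log2 change -2.70 ± 0.13, limma adjusted p = 1.75e-14). Hal and Uroc1, which act in succession in histidine breakdown, had log2 changes of -1.53 ± 0.13 and -0.59 ± 0.07 (limma adjusted p = 1.61e-09 and 1.17e-07). Pck1, the gluconeogenic carboxykinase, had -1.23 ± 0.13 (limma adjusted p = 5.67e-08). The list was not of a single direction: Aldh1b1, a mitochondrial aldehyde dehydrogenase, was higher by 0.69 ± 0.11 (limma adjusted p = 2.63e-05).

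Among 11 pericentral genes, 3 were higher, 2 lower and 6 not called under vehicle (median 0.00). The same all-gene shares, 15.4% higher and 12.1% lower, apply here. The ammonia transporter Rhbg was higher, with 8.09 to 8.31 in FXRKO vehicle livers, against 6.64 to 7.65 in WT vehicle livers (log2 change 1.22 ± 0.14, limma adjusted p = 3.17e-07). Lect2 was higher by 0.56 ± 0.08 (limma adjusted p = 2.18e-06). The glutamate transporter Slc1a2 was lower by a log2 change of -0.68 ± 0.08 (limma adjusted p = 6.60e-07), and Glul, the glutamine synthetase that scavenges ammonia after the urea cycle, by -0.43 ± 0.08 (limma adjusted p = 1.38e-04). Rhbg, Slc1a2 and Glul belong also to the list of ammonia, glutamate and amino acid handling, where the same calls were counted. The cytochrome genes Cyp2e1 and Cyp1a2 were at -0.01 and -0.09 and were not called. Whether periportal genes as a class differ from pericentral ones was not tested.

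A list of 14 genes held regulators of amino acid and bile acid metabolism together with the enzyme genes Tat and G6pc1. Of these 14 genes, 13 were measured, and 5 were lower and 8 not called under vehicle, with 8 lower and 5 not called under OCA. Without WT vehicle replicate 6, the vehicle count was also 8 lower. Of all genes, 12.1% were called lower under vehicle and 13.3% under OCA, with all arrays kept. Nr0b2 was at -2.62 ± 0.25 (limma adjusted p = 1.21e-08) under vehicle. Hnf4a, a master factor of hepatocyte genes, was at -0.52 ± 0.08 (limma adjusted p = 2.95e-05), with 10.96 to 11.15 in FXRKO vehicle livers, against 11.32 to 11.98 in WT vehicle livers. Ppargc1a, a coactivator of fasting metabolism, was at -0.61 ± 0.13 (limma adjusted p = 6.22e-04), and Klf15, a factor known in mouse liver for control of amino acid breakdown, at -0.31 ± 0.09 (limma adjusted p = 0.0149). In WT livers OCA moved Nr0b2 by 1.41 ± 0.25 (limma adjusted p = 0.0244), the sole call in the list, which became 1.26 with an adjusted p of 0.0526 without WT vehicle replicate 6.

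Markers of some cell types also differed between the genotypes. For these counts, the shares over all genes were 12.1% lower and 15.4% higher under vehicle, and 13.3% and 17.4% under OCA. Of 5 measured hepatocyte markers, 1 was lower under vehicle, Serpina1c at -0.48 ± 0.10 (limma adjusted p = 5.53e-04), while Alb, Ttr, Apoa1 and Apob were between -0.10 and -0.02 and were not called. Under OCA all 5 were lower, with a median of -0.15. The mean signal of the 5 spanned 12.62 to 12.87 in FXRKO OCA livers, 12.72 to 12.86 in FXRKO vehicle livers, 12.92 to 13.01 in WT OCA livers and 12.88 to 13.00 in WT vehicle livers. In bulk liver, fewer hepatocytes and less RNA of a gene per hepatocyte cannot be told apart. Relative to the mean of these 5 markers in each array, a scale chosen after seeing the data, 2 of the 7 decreases under vehicle still passed, Otc at -0.26 (limma adjusted p = 0.00104) and Asl at -0.41 (limma adjusted p = 0.00306). On that scale Cps1 was at -0.14 (limma adjusted p = 0.0903), Arg1 at -0.20 (limma adjusted p = 0.063), Slc25a15 at -0.20 (0.148), Nags at -0.12 (0.255) and Slc25a13 at -0.11 (0.268), while Oat stayed higher at 0.49. With Serpina1c left out of the scale, all 7 decreases under vehicle passed, at -0.19 to -0.49. Of 18820 genes, 793 were lower on the scale of 5 markers and 1298 without Serpina1c. Alb, Ttr, Apoa1 and Apob, which then set the scale, had signals of 12.49 to 13.51 under vehicle, where the highest array value was 13.60. Whether signals that high still register a lower share of hepatocytes was not tested.

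Under OCA the same marker scale left 2 genes lower, Otc at -0.20 (limma adjusted p = 0.00652) and Asl at -0.32 (limma adjusted p = 0.0128), and 3 without Serpina1c. Those scales left 737 and 1064 of all 18820 genes lower. Of 9 Kupffer cell markers, 7 were higher under vehicle and 8 under OCA (medians 0.79 and 1.07), with a mean signal of 8.71 to 8.99 in FXRKO vehicle livers, against 7.62 to 8.74 in WT vehicle livers. All 7 stellate cell markers were higher in both sets (medians 1.03 and 1.08), with 8.01 to 8.36 in FXRKO vehicle livers, against 7.12 to 7.48 in WT vehicle livers. Of 7 sinusoidal endothelial markers 1 was lower under vehicle (median -0.07), while under OCA 2 were higher and 0 lower (median 0.24). Among all genes, 12.1% were lower under vehicle, and 17.4% were higher under OCA. Of 5 cholangiocyte markers 2 were higher under vehicle and 0 were called under OCA, and of 5 lymphocyte, 3 neutrophil and 2 adipocyte markers none was called under vehicle or OCA. Without WT vehicle replicate 6, 1 lymphocyte marker was lower and 1 neutrophil marker higher under vehicle. Alas2, the 1 measured erythroid marker, was lower at -1.15 ± 0.11 (limma adjusted p = 1.13e-08). The part of these marker differences in the lower urea cycle signals was not tested.

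The array codes carry a number, 5, 7 or 9, which the sources used here do not explain and which is unevenly spread over the groups. Number 7 held 4 FXRKO vehicle and 4 WT vehicle arrays, and within it all 7 decreases and the increase of Oat passed the test. Over all 18820 genes, 4533 were called there in either direction. There Cps1 was at -0.29, Otc at -0.41, Nags at -0.31, Asl at -0.54, Arg1 at -0.29, Slc25a15 at -0.33, Slc25a13 at -0.29 and Oat at 0.25, with limma adjusted p-values between 0.00186 and 0.0364. With the number as a block over all arrays, the 7 decreases under vehicle were called, beside 4281 of all genes in either direction. Only number 7 held both genotypes, so the block gave the same changes under vehicle and is no second test. For the OCA livers the block links the genotypes only through vehicle arrays, 2 FXRKO of number 9 and 2 WT of number 5. Under OCA the block left 1 gene lower, Otc at -0.42 (limma adjusted p = 0.027), with Cps1 at -0.32 (0.08), Nags at -0.43 (0.137), Asl at -0.49 (0.219), Slc25a13 at -0.31 (0.132), Arg1 at -0.06 (0.888) and Oat at 0.12 (0.734).

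Within groups, the genes varied together only in part. Over the 24 arrays, as deviations from the group means, the 28 pairs of the 8 genes had a median Pearson correlation of 0.10, with 17 pairs above 0 and 3 above 0.5. Without WT vehicle replicate 6 the median was 0.20, with 20 pairs above 0. The 3 were Asl with Arg1 at 0.75, Cps1 with Asl at 0.62 and Cps1 with Arg1 at 0.57, and without that array they were at 0.70, 0.66 and 0.65. Otc, with a gap of 0.20 between its highest knockout and lowest wild-type array, correlated at 0.17 with Cps1 within groups (0.20 without that array), and at -0.21 with Arg1, which turned to 0.06 without it. The lowest correlation over 24 arrays was that of Arg1 with Oat, -0.48, which was -0.36 without WT vehicle replicate 6, where Nags with Slc25a13 was the lowest at -0.45. These values share arrays, and thus RNA quality and scaling, and are given as a description.

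**Figure D4:**
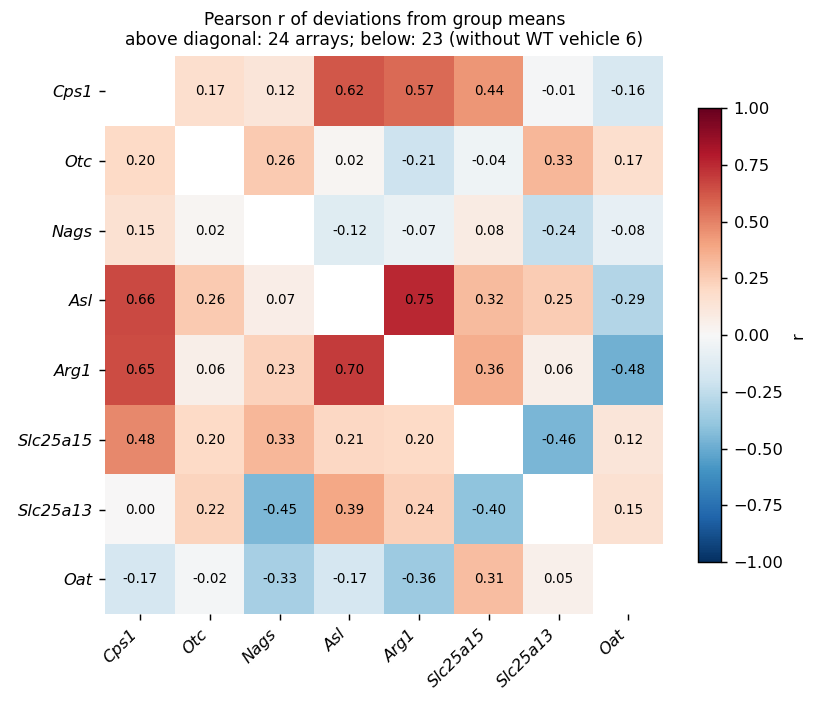
Pearson correlation between pairs of the 8 genes, as deviations from the 4 group means. Cells above the diagonal are over 24 arrays, and cells below it are over 23 arrays, without WT vehicle replicate 6. Rows and columns are genes and colour gives the correlation from negative to positive. Asl, Arg1 and Cps1 form the pairs above 0.5. Arg1 with Oat is the lowest at -0.48 over 24 arrays (-0.36 without WT vehicle replicate 6, where Nags with Slc25a13 is the lowest at -0.45).

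The genes whose within-group deviations were most like the mean of the 5 measured urea cycle enzymes were Got1 (Pearson correlation 0.81 over 24 arrays), Slc7a2 (0.79), Tat (0.74), Slc38a4 (0.72), Upp2 (0.71) and Heatr3 (0.69), where the median over all genes was -0.04. The listed genes themselves and genes with only predicted or clone names, such as Gm and Rik, were left out of this ranking. Slc7a2 carries arginine and other cationic amino acids into the cell, Slc38a4 carries neutral amino acids, and Tat breaks down tyrosine. Likeness within groups did not go with the knockout change in every case. Slc7a2 was lower in FXRKO vehicle than in WT vehicle livers at -0.60 ± 0.10 (limma adjusted p = 2.39e-05). Got1 at -0.87 ± 0.16 (limma adjusted p = 1.32e-04) and Upp2 at -0.31 ± 0.11 (limma adjusted p = 0.0398) were lower too. Slc38a4 at -0.05 ± 0.05 (limma adjusted p = 0.442), Tat at -0.11 ± 0.09 (limma adjusted p = 0.394) and Heatr3 at -0.21 ± 0.08 (limma adjusted p = 0.0718) were not called. Without WT vehicle replicate 6 the 6 correlations ranged from 0.69 to 0.82. The 6 genes were picked as the highest over 24 arrays that include these, so their high values are no separate result.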

How the data were processed

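Per the submitters' processing notes the authors made the deposited log2 values by RMA, and they were used without further scaling. The log base was inferred from a span of 0.87 to 13.60, as the sources used here do not state it. No detection calls were used, and the number of arrays limits the precision. Of 35556 probe sets, 21218 carried 1 symbol, 1881 several and 12457 had no entry in the probe table. The probe set with the highest mean was kept, which left 18820 genes. Symbols of 21185 probe sets were matched, and updated where they differed, by gene number from RefSeq (GRCm38.p6).

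Group means of the 4 groups were modelled in R 4.3.3 by limma 3.58.1 with moderated variance (20 residual degrees of freedom, 4.46 prior), adjusted by Benjamini-Hochberg over all genes and called at adjusted p under 0.05. The fit was tested on simulated data. Figures used Python 3.11.15 and matplotlib 3.10.9. Groups follow the sample titles, and each array held 1 mouse. Values are log2 change ± SE.

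The genes and lists were chosen with earlier results of these data known. Named genes were all members, Nr1h4, Nr0b2, up to 4 genes per list with the smallest p for knockout under vehicle, up to 2 for OCA in wild-type liver, and the 6 genes most alike. Other genes named from the lists (Alb, Ttr, Apoa1, Apob, Serpina1c, Alas2, Aldh1b1, Cyp2e1, Cyp1a2) were picked after their values were seen. Replicate numbers did not pair the samples (36 same-number pairs, correlations -0.12 to 0.25). Alternatives covered scaling, filters, moderation, array weights, array code, replicate block, probe set choice and each array left out. Scales on hepatocyte markers and on named genes, and some fits without WT vehicle replicate 6, were chosen after seeing the data.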

Additional observations from a re-analysis of the deposited data

Results flagged for a closer look

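Dixon's test was applied to each group of 6 arrays for the 8 genes and the 2 probe sets shared by Ass1 and Gm5424, which made 40 groups, of which chance alone is set to flag about 1 in 20. In 2 groups 1 array stood apart from the rest. Cps1 was 12.92 in WT vehicle replicate 1, above the 12.75 to 12.80 of the other arrays of its group, and leaving out each array in turn kept the knockout change of Cps1 under vehicle between -0.31 and -0.27. Slc25a13 was 10.39 in WT OCA replicate 5, below the 10.62 to 10.73 of the others.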

How the results depend on the processing

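The 7 decreases under vehicle kept their direction under every alternative run. Counts of genes called changed under these settings. With a block for the number of the array code, 0 were higher under vehicle, and 1 was lower and 0 higher under OCA. Centred on the median of the named genes, 0 were higher under vehicle (Oat 0.17, adjusted p = 0.0634). Centred on hepatocyte markers, 2 were lower under vehicle and 2 under OCA, where Slc25a13 reversed to 0.01 (adjusted p = 0.948), and without Serpina1c 3 were lower under OCA. Apart from the centring itself, the cause was not tested. Leaving out each array gave 7 to 7 lower and 1 to 1 higher under vehicle, 5 to 7 lower and 1 to 1 higher under OCA, and 0 to 0 for both OCA effects and their difference. Arg1 under OCA also missed the threshold with quantile normalization (-0.20, adjusted p = 0.0823), with the array code letter as a block (-0.25, 0.0702) and without the 4 arrays named _2 (-0.23, 0.156), as did Slc25a13 in the last 2 (-0.19, 0.059 and -0.23, 0.0616). With the replicate number as a block the counts remained 7 lower and 1 higher under vehicle, 6 and 1 under OCA, and 0 elsewhere (Cps1 -0.30, adjusted p = 2.98e-04 under vehicle), so the block changed no call. Over all genes, calls for knockout under vehicle were 2903 higher and 2271 lower as deposited, 1776 and 8354 centred on named genes, a shift of -0.17, and 5250 and 793 on hepatocyte markers, a shift of 0.15. Under OCA they were 3280 and 2500, 1878 and 9221 (shift -0.19), and 7568 and 737 (shift 0.22). Without Serpina1c they were 3828 and 1298 under vehicle and 5655 and 1064 under OCA. The planned centring on array medians took all probe sets (2647 and 2647, and 3053 and 2823); it was first computed on named genes, which the plan did not settle. Quantile normalization gave 2526 and 2863, and 2805 and 3214. The block gave 4281 calls under vehicle, against 5174, and 2334 under OCA, against 5780. Calls for OCA in WT livers were 13, and 2 to 22 elsewhere apart from 667 with the number block. In FXRKO livers they were 3, and 0 to 11 elsewhere, and for the difference 0, and up to 34.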
